A study of Danio rerio with 6 samples.

Results

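The genes described here drive the cell division cycle, and they were measured in whole zebrafish embryos at 48 h after fertilization with and without a morpholino against setb. They were taken by symbol: every gene named by a probe set with exactly 1 platform symbol that begins with mcm, ccna, ccnb, ccnd, ccne, cdk and a digit, cdc, orc, gins, pola, pold, pole, rfc, cenp, plk, aurk, bub, mad2, ncap, smc, e2f or rrm, without the kinase inhibitor gene cdkn1a. That rule found 131 of the 11304 genes measured. By the known function of their products, 31 belong to DNA replication, 14 to the control of G1 and the entry into S phase, and 35 to mitosis. The other 51 carry such a symbol but act mainly elsewhere (for example cdk5, a neuronal kinase) or were not placed in a phase. RefSeq lists 192 protein-coding zebrafish genes with these symbols. The 61 not analysed here include the helicase genes mcm2 and mcm5, the cyclin genes ccne1 and ccnb2 and e2f1.

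At the 1-cell stage the embryos had received either a control morpholino (3 samples) or the setb morpholino MO1 (3 samples), and total RNA of each sample was hybridised to 1 Affymetrix array. Morpholinos are antisense oligonucleotides that block translation or splicing, and the labels say neither which of these MO1 does nor the strain of the fish. Phenotypes of the morphants fell into normal-like, mild and moderate classes, but the class of each RNA sample is not given, and no rescue or second morpholino is among the samples. The gene setb and its paralog seta correspond to SET, which chaperones histones and inhibits the phosphatase PP2A.

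The cycle runs through a growth phase (G1), DNA synthesis (S), a second gap (G2) and mitosis. D-type cyclins with Cdk4 and Cdk6 inactivate the retinoblastoma family of proteins, which frees E2F factors to switch on cyclin E and the genes of DNA synthesis. Origins of replication are marked by the origin recognition complex (ORC) and loaded with the MCM helicase, and cyclin B with Cdk1 later drives entry into mitosis. At 48 h many zebrafish cells have left the cycle, and dividing cells are known from the margin of the retina, the ventricular zones of the brain and the skin, among other places.

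Values are log2 intensities, with array medians of 9.47 to 9.49. The setb transcript stood at 12.51, 12.48 and 12.38 in control embryos against 12.69, 12.60 and 12.66 in morphants (0.19 ± 0.07, limma adjusted p = 0.0465), and a morpholino need not lower the transcript it targets. Markers of whole-embryo tissues were present: 8 of 8 neuron, 4 of 4 lens, 4 of 4 epidermis and 5 of 5 skeletal muscle markers were measured, while none of 4 germ cell markers was. All 8 neuron and all 4 lens markers were lower in setb MO1 embryos, and 5 of 8 neural progenitor markers did not pass the test, with 1 higher and 2 lower. Of 4 measured erythrocyte markers 3 were lower and 1 did not pass. Among the skeletal muscle markers 1 was higher and 1 lower, and among the epidermis markers 2 were higher and 0 lower. Of the lower ones, syn2a, gad1b, gad2 and bfsp2 reached a log2 level of 8.45, the filter level described below, in control arrays only. Samples were numbered within a group, and the labels do not say whether clutches differed between them. The p-values thus cover the spread among the 6 samples, and that spread could be technical.

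Members are called higher or lower in setb MO1 embryos where limma's adjusted p, over all 11304 genes, is under 0.05. By that rule 29 of the 131 members were higher, 24 were lower and 78 did not pass. Without control replicate 2 the counts were 16 and 15, and without setb MO1 replicate 2 they were 18 and 15, with 31.2% and 34.7% of all genes called. Over all genes 44.7% were called, 23.9% higher and 20.8% lower, against 40.5% of the members, so the share of members called lay near the background. The members' median log2 difference of setb MO1 minus control was 0.01, beside 0.02 over all genes. Their differences were small: none was called at 2-fold or more, where 1.06% of all genes were higher and 1.8% lower by that much. The median absolute log2 difference was 0.17 for the members and 0.22 for all genes. In 40 members every setb MO1 array lay above every control array, in 42 below, and in 49 the groups overlapped, while over all genes 58% did not overlap. The deposited table keeps only probe sets that reached a log2 level of 8.45 in at least 1 array. Of the members, 7 reached it in 1 group only (rfc4, orc5, cdc42ep2 and cdcp1a in setb MO1; cdk5r1a, cdk20 and cdc42ep4a in control). These were listed through the arrays of that group, which favours a difference in its direction, so their directions are no independent result. Of them rfc4, orc5, cdc42ep2 and cdcp1a were called higher and cdk5r1a lower. The differences of cdk20 (−0.23) and cdc42ep4a (−0.11) were negative too, without passing. Among the 124 members that reached the level in both groups, 25 were higher and 23 lower.

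**Figure D1:**
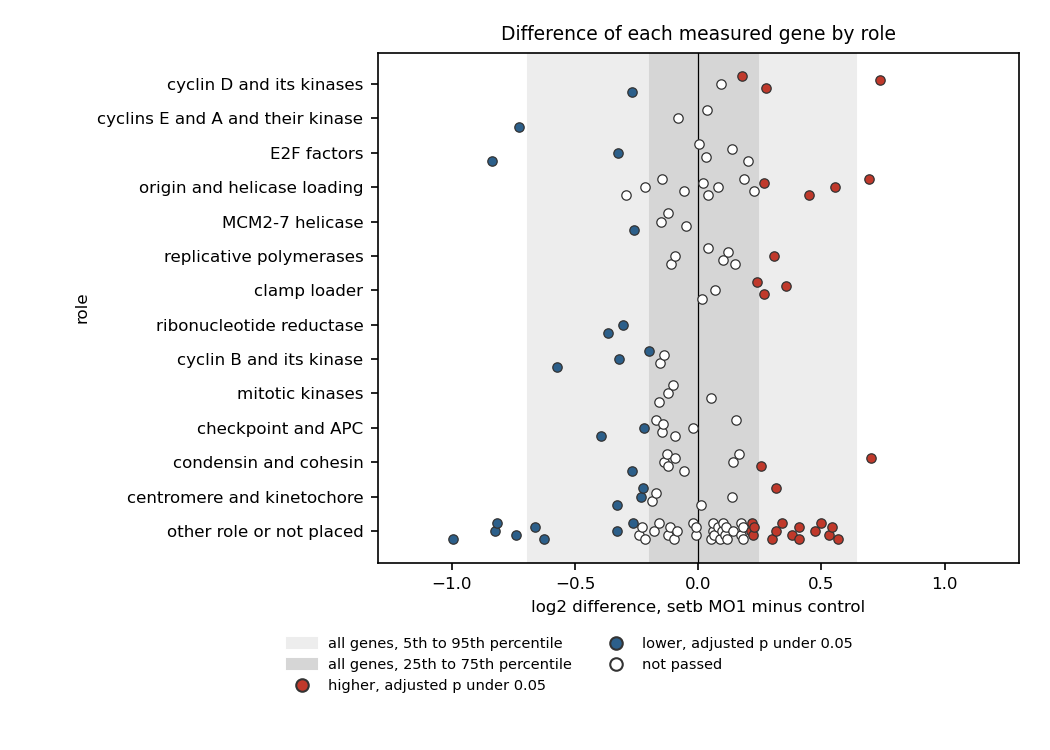
Log2 difference, setb MO1 minus control (horizontal axis), of each of the 131 members by role (vertical axis); red and blue points passed the test as higher or lower, white points did not, and grey bands give the 5th to 95th and 25th to 75th percentiles of all 11304 genes. Clamp loader genes lie at or right of 0 and all genes of the cyclin B row left of 0, and most points fall between the outer percentiles of −0.69 and 0.64.

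The genes that start the cycle moved in both directions: the 3 D-type cyclin genes rose, while cdk6, the cyclin E gene ccne2 and the factor genes e2f2 and e2f8 fell. Of the 14 genes of G1 and S phase control, 3 rose, 4 fell and 7 did not pass, with a median log2 difference of 0.03. These are 21.4% higher and 28.6% lower, beside 23.9% and 20.8% of all genes. Without control replicate 2, 1 rose. The D-type cyclin gene ccnd2b was at log2 levels of 9.16, 8.76 and 8.69 in control embryos and 9.56, 9.69 and 9.58 in morphants. Every setb MO1 array lay above every control array, although control replicate 1 stood above the other controls. The difference was 0.74 ± 0.12 (SE, n = 3 and 3, limma adjusted p = 0.00293), a 1.67-fold increase. Its paralog ccnd2a was at 10.31, 10.29 and 10.34 in control and 10.65, 10.59 and 10.52 in setb MO1 embryos, a difference of 0.27 ± 0.06 (adjusted p = 0.0107). The remaining D-type cyclin gene measured, ccnd1, was among the brightest members, at 12.42, 12.41 and 12.44 in control and 12.58, 12.57 and 12.66 in setb MO1 embryos (0.18 ± 0.06, adjusted p = 0.0452). The 3 D-type cyclin genes thus all rose, with no overlap of the groups. Over all genes 30.6% had every setb MO1 array above every control array. Whether probes of these paralogs share signal was not tested.

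The kinase partners of cyclin D did not move with it. Levels of cdk6 were 10.66, 10.75 and 10.79 in control and 10.50, 10.40 and 10.49 in setb MO1 embryos, a decrease (−0.27 ± 0.07, adjusted p = 0.0154). The other partner, cdk4, differed by 0.09 ± 0.09 and did not pass, with overlapping groups. Some of these calls were lost with 1 array less: ccnd1 missed the threshold without any 1 of the 6 arrays (adjusted p = 0.0714 to 0.135), ccnd2a without control replicate 2 (0.0505), and cdk6 without control replicate 2 (0.0638) or setb MO1 replicate 2 (0.0598). In those fits the ccnd1 difference stayed at 0.15 to 0.20. The call on ccnd1 was also lost after repeated quantile normalization, while that on ccnd2b stood without any single array.

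The cyclin gene ccne2, whose product with Cdk2 fires the entry into S phase, was at 9.97, 9.91 and 9.78 in control and 9.08, 9.24 and 9.16 in setb MO1 embryos. The 2 groups lay more than 0.5 apart on the log2 scale at their nearest arrays. The difference was −0.73 ± 0.08 (adjusted p = 0.000476). Its kinase gene cdk2 stood at 10.72, 10.34 and 10.42 in control and 10.52, 10.65 and 10.41 in setb MO1 embryos, with overlapping groups and a difference of 0.03 ± 0.11. The S and G2 phase cyclin gene ccna2 also overlapped, at 10.79, 10.88 and 11.05 against 10.86, 10.80 and 10.80 (−0.08 ± 0.08). A second probe set, annotated with 2 entries for ccna2 and left out by the rule, differed by a like −0.08 ± 0.10.

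Among the E2F factors, e2f2, an activator of S phase genes, had the largest decrease of any member of the 3 phases. It was at 10.59, 10.24 and 10.38 in control and 9.54, 9.65 and 9.51 in setb MO1 embryos, 1.79-fold lower (−0.84 ± 0.10, adjusted p = 0.000648). The atypical repressor gene e2f8 was at 10.32, 10.23 and 10.29 in control and 9.97, 9.99 and 9.91 in setb MO1 embryos (−0.33 ± 0.06, adjusted p = 0.00475). In both the groups were apart, and both calls stood without any single array. The repressor gene e2f4, which acts with the pocket proteins in resting cells, was higher in each setb MO1 array, at 11.47, 11.29 and 11.33 against 11.58, 11.61 and 11.51, but did not pass (0.20 ± 0.07, adjusted p = 0.0539). It passed without control replicate 1 (adjusted p = 0.0201) and in 4 other settings, such as a trended prior. Of the remaining factors, e2f6 differed by 0.14 ± 0.06 without passing. The genes e2f3 and e2f7 differed by 0.003 ± 0.086 and 0.03 ± 0.08, with overlapping groups.

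**Figure D2:**
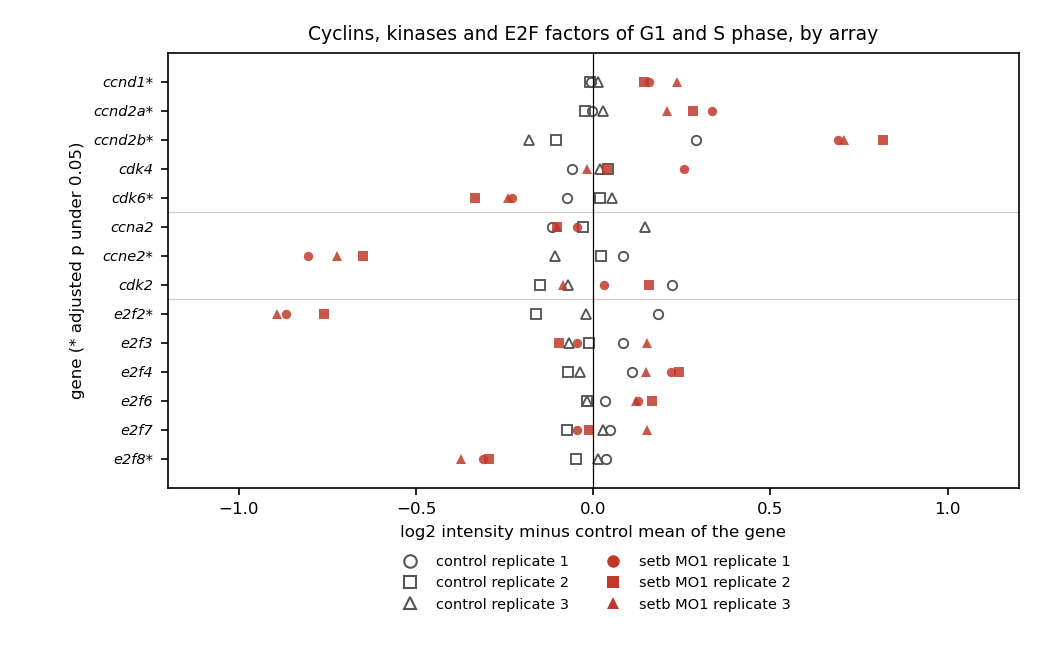
Log2 level in each array minus the control mean of the gene (horizontal axis) for 14 cyclin, kinase and E2F genes (vertical axis); open grey symbols are control and filled red symbols setb MO1 arrays, shapes give the replicate number, and asterisks mark genes that passed the test. The red symbols of ccnd2b all lie right of its grey ones, and those of ccne2 and e2f2 all lie left of the control symbols.

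Of the 31 replication genes, 8 rose, 3 fell and 20 did not pass, with a median log2 difference of 0.04. At 25.8% higher and 9.68% lower, the share that rose was near the 23.9% of all genes, of which 20.8% fell. Those that rose were 4 of 5 ORC genes, 3 of 5 clamp loader genes and the polymerase gene pole2, and those that fell were rrm1, rrm2l and mcm6. Without the 2 that reached the level of 8.45 in setb MO1 arrays only, 6 rose and 3 fell of 29. Of the 31, 5 rose without control replicate 2 or setb MO1 replicate 2. From control replicate 1 to control replicate 3 the median replication gene differed by −0.09.

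Of the 5 measured genes of ORC, the complex that marks origins, 4 rose, beside 23.9% of all genes. The subunit gene orc3 was at 8.83, 8.80 and 8.60 in control and 9.48, 9.43 and 9.41 in setb MO1 embryos, with the groups well apart. It rose 1.62-fold (0.69 ± 0.08, adjusted p = 0.000575). Levels of orc5 were low in control embryos, at 7.94, 7.87 and 8.05, and 8.45, 8.62 and 8.45 in setb MO1 embryos (0.55 ± 0.08, adjusted p = 0.00154). It reached the filter level of 8.45 in setb MO1 arrays only. For orc2 the levels were 9.21, 9.31 and 9.45 against 9.72, 9.75 and 9.85 (0.45 ± 0.08, adjusted p = 0.00372), and its second probe set differed by 0.22 ± 0.06. Another probe set, annotated to both orc2 and tk1 and left out by the rule, went the other way (−0.59 ± 0.08), close to the difference of tk1 itself (−0.53 ± 0.08). The gene orc1 rose by 0.27 ± 0.07 (adjusted p = 0.0159), and the call was lost without control replicate 2 (0.0678) or setb MO1 replicate 2 (0.0559) or 3 (0.0543). The fifth, orc4, did not pass and overlapped between the groups.

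No other gene of helicase loading and activation passed, while 44.7% of all genes did. The 8 others of that role comprise cdc6, which loads the helicase, cdc7, the kinase that fires it, its partners cdc45 and gins1 to gins4, and mcmbp. Their differences ran from −0.29 to 0.23. The lowest was that of cdc45, at 8.65, 8.85 and 9.11 in control and 8.54, 8.53 and 8.65 in setb MO1 embryos (−0.29 ± 0.12, adjusted p = 0.0767), where the control arrays themselves spread by 0.46.

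The 4 measured subunits of the MCM2-7 helicase, which unwinds the DNA, all had negative differences, as had 5323 of all 11304 genes. Of the 4, 1 passed (25% lower, near the 20.8% of all genes). A probe set annotated to both mcm5 and hmox1a, left out by the rule, went the other way (0.12 ± 0.07). Levels of mcm6 were 10.68, 10.64 and 10.43 in control and 10.33, 10.26 and 10.38 in setb MO1 embryos (−0.26 ± 0.08, adjusted p = 0.0388). For mcm4 they were 10.12, 10.08 and 10.05 against 9.92, 9.88 and 9.99 (−0.15 ± 0.06), and for mcm7 11.06, 10.93 and 10.96 against 10.86, 10.83 and 10.88 (−0.12 ± 0.06). In these 3 subunits every setb MO1 array lay below every control array, as in 27.4% of all genes. In mcm3 the groups overlapped, at 8.90, 8.67 and 8.31 against 8.69, 8.45 and 8.58 (−0.05 ± 0.15). The call on mcm6 held without control replicate 3 but not without any other single array (adjusted p = 0.0619 to 0.133).

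Of the replicative polymerase genes, pole2, a subunit of polymerase epsilon, was the only 1 of 7 that passed (14.3%, beside 44.7% of all genes). It was at 8.55, 8.52 and 8.55 in control and 8.89, 8.82 and 8.83 in setb MO1 embryos (0.31 ± 0.06, adjusted p = 0.0051), while its second, dimmer probe set differed by 0.10 ± 0.08. The catalytic subunit gene of polymerase delta, pold1, was at 10.21, 10.16 and 10.11 against 10.36, 10.26 and 10.32 (0.15 ± 0.06, adjusted p = 0.0902). For pold3, at 10.43, 10.22 and 10.06 against 10.39, 10.39 and 10.29, the groups overlapped (0.12 ± 0.10). The other 4 polymerase genes, pola1, pola2, pole and pole3, differed by −0.11 to 0.10.

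Replication factor C loads the sliding clamp onto DNA, and all 5 of its subunit genes were measured. Of these rfc4 was at 8.43, 8.32 and 8.38 in control and 8.69, 8.73 and 8.77 in setb MO1 embryos, a rise of 0.36 ± 0.06 (adjusted p = 0.00364), though its control arrays lay below the filter level. For rfc5 the levels were 8.71, 8.61 and 8.70 against 8.92, 8.91 and 8.90 (0.24 ± 0.06, adjusted p = 0.0167). For rfc2 they were 10.35, 10.10 and 10.15 against 10.40, 10.53 and 10.47 (0.27 ± 0.08, adjusted p = 0.0356). All 3 rose without overlap, while rfc1 and rfc3 differed by 0.01 and 0.07 and overlapped. In 30.6% of all genes the setb MO1 arrays all lay above the control arrays. The call on rfc2 held only without control replicate 1 among the single arrays left out (otherwise adjusted p = 0.0559 to 0.131), and that on rfc5 was lost without control replicate 2 (0.0774) or setb MO1 replicate 1 (0.0540) or 2 (0.0529).

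Ribonucleotide reductase makes the deoxynucleotides for DNA synthesis, and the 2 of its genes counted in replication fell, beside 20.8% of all genes. The large subunit gene rrm1 was tightly grouped at 12.30, 12.29 and 12.30 in control and 11.96, 11.97 and 12.03 in setb MO1 embryos (−0.31 ± 0.06, adjusted p = 0.00485). The small subunit gene rrm2l was at 10.46, 10.38 and 10.31 against 9.91, 10.15 and 9.99 (−0.37 ± 0.08, adjusted p = 0.0103). Both calls stood without any single array. In contrast rrm2b, which encodes the small subunit known as a p53 target and is counted here outside S phase, rose by 0.50 ± 0.12 (adjusted p = 0.0111), from 10.25, 10.08 and 9.97 to 10.73, 10.68 and 10.38.

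**Figure D3:**
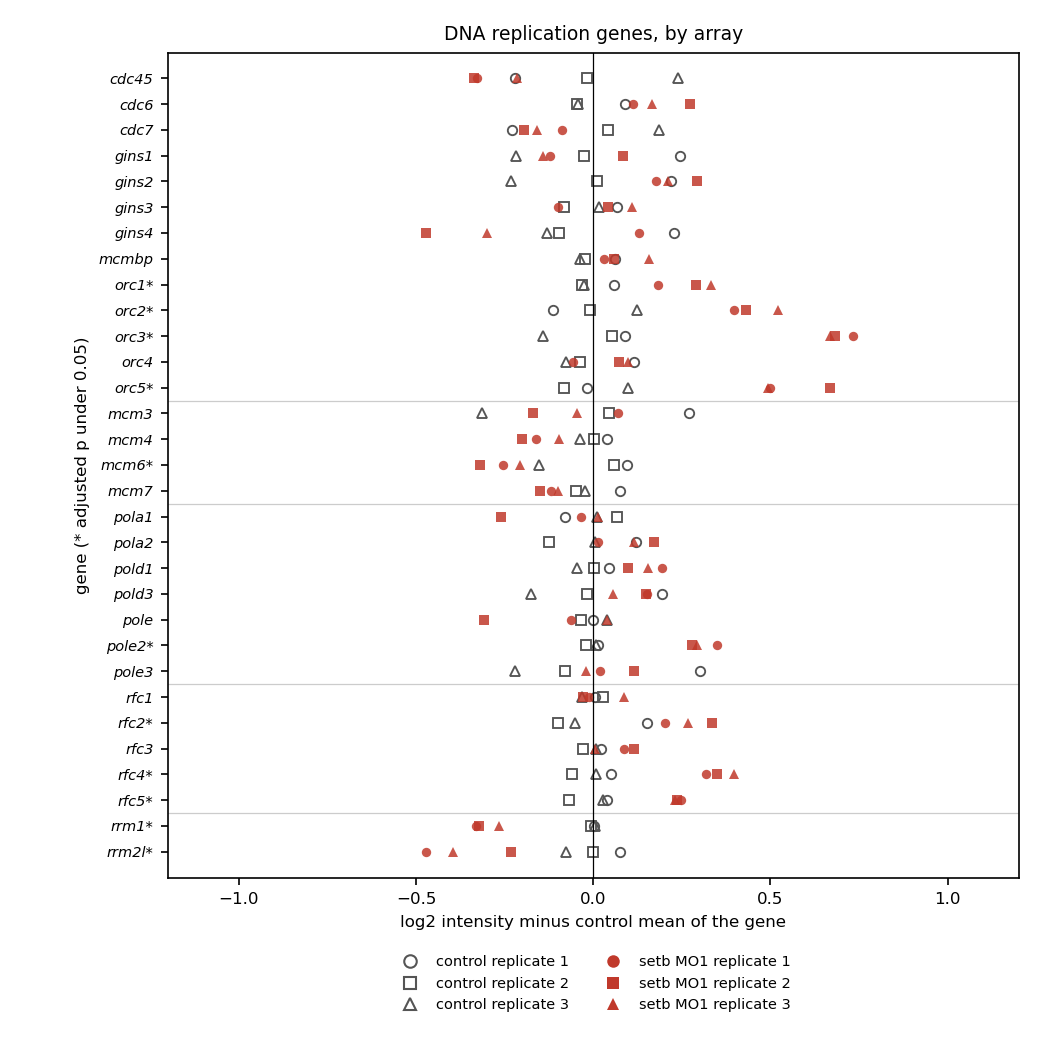
Log2 level in each array minus the control mean of the gene (horizontal axis) for 31 replication genes (vertical axis), grouped by role with grey lines between roles; open grey symbols are control and filled red symbols setb MO1 arrays, shapes give the replicate number, and asterisks mark genes that passed the test. The red symbols of orc2, orc3 and orc5 lie right of all grey ones, and those of rrm1 and rrm2l left of them.

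Of 35 mitosis genes, 9 fell, 3 rose and 23 did not pass, with a median log2 difference of −0.14, and the largest decrease was that of the B-type cyclin gene ccnb3. The share called was 8.57% higher and 25.7% lower, beside 23.9% and 20.8% of all genes. In 21 the setb MO1 arrays all lay below the control arrays and in 4 all above, whereas over all genes 27.4% lay below and 30.6% above. Fewer fell with 1 array less: 2 without control replicate 2, 3 without setb MO1 replicate 2, 4 without setb MO1 replicate 1 or 3, 5 without control replicate 3 and 6 without control replicate 1. In the same fits 15% to 20.5% of all genes were called lower. From control replicate 1 to control replicate 3 the median mitosis gene differed by 0.08. Calls on markers of retinal progenitors and neural progenitors went both ways, and those on epidermis markers did not. Of 4 epidermis markers 2 were higher, 0 lower and 2 did not pass, with a median log2 difference of 0.29. Of 5 retinal progenitor markers rx2, atoh7 and foxn4 were lower, six3b was higher and rx1 did not pass, and their median log2 level was 9.43 to 10.05 in control and 8.44 to 8.59 in setb MO1 arrays. These medians fell on rx1 or six3b in control arrays and on foxn4 in setb MO1 arrays, so they compare different genes. The difference was 0.31 ± 0.15 for rx1, 0.44 ± 0.12 for six3b and −1.95 ± 0.09 for foxn4. The markers rx2 and atoh7 reached the filter level of 8.45 in control arrays only. Of 8 neural progenitor markers her4.1 and pax6a were lower, her9 was higher and 5 did not pass, with a median level of 10.54 to 10.84 and 10.48 to 10.73. The part of these markers in the mitosis values was not tested. RNA came from whole embryos, so that fewer dividing cells and less RNA per dividing cell cannot be told apart.

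The 5 genes of cyclin B, its kinase and its activators were all below the control arrays, as were 27.4% of all genes. The B-type cyclin gene ccnb3 was at 8.99, 8.99 and 9.30 in control and 8.46, 8.53 and 8.57 in setb MO1 embryos, 1.49-fold lower (−0.58 ± 0.10, adjusted p = 0.00301). Levels of ccnb1 were 9.98, 10.08 and 10.10 against 9.80, 9.71 and 9.69 (−0.32 ± 0.07, adjusted p = 0.00712). The phosphatase gene cdc25b, whose product switches Cdk1 on, was at 11.42, 11.40 and 11.48 against 11.21, 11.31 and 11.18 (−0.20 ± 0.07, adjusted p = 0.0409). These 3 fell, with the cdc25b call holding only without setb MO1 replicate 2 among the single arrays left out (otherwise adjusted p = 0.0557 to 0.119). The kinase gene cdk1 was at 11.20, 11.19 and 11.16 against 11.05, 10.98 and 11.06, and missed the threshold (−0.16 ± 0.06, adjusted p = 0.0674). Quantile normalizing the arrays again brought it past (cdk1 log2 difference, adjusted p = 0.0399), as did 3 other settings. The fifth gene, cdca3, a trigger of mitotic entry, did not pass either.

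The Polo and Aurora kinases build the spindle and separate the chromosomes, and none of their 4 genes passed, beside 44.7% of all genes. The centriole kinase gene plk4 was at 9.63, 9.66 and 9.69 in control and 9.53, 9.48 and 9.49 in setb MO1 embryos (−0.16 ± 0.06, adjusted p = 0.0619). For aurka the levels were 10.70, 10.67 and 10.73 against 10.57, 10.64 and 10.52 (−0.12 ± 0.06), and for plk1 11.05, 11.10 and 11.21 against 11.04, 10.99 and 11.02 (−0.10 ± 0.07). In these 3 the groups did not overlap, as in 58% of all genes, although those of aurka and plk1 nearly touched. The gene of the chromosomal passenger kinase, aurkb, varied more within the controls, at 10.69, 10.91 and 11.25, than between the groups (0.05 ± 0.15).

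Of 8 genes of the spindle checkpoint and the anaphase-promoting complex (APC), 2 fell and 6 did not pass. The share that fell was 25%, near the 20.8% of all genes, and 0% rose, beside 23.9%. The checkpoint gene bub1bb was at 11.52, 11.36 and 11.43 in control and 11.18, 11.25 and 11.22 in setb MO1 embryos (−0.22 ± 0.07, adjusted p = 0.0321). The APC subunit gene cdc26 was at 10.87, 10.48 and 10.41 against 10.24, 10.30 and 10.03 (−0.39 ± 0.13, adjusted p = 0.0457), with control replicate 1 high. The kinase gene bub1 was at 9.90, 9.82 and 9.95 against 9.70, 9.67 and 9.78 (−0.17 ± 0.07, adjusted p = 0.071). Leaving out any 1 of the arrays ended the call on bub1bb (adjusted p = 0.0510 to 0.0995), and leaving out any but control replicate 3 that on cdc26 (0.0662 to 0.135). The other 5 genes, bub1ba, bub3, cdc16, cdc20 and cdc27, differed by −0.15 to 0.15.

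Condensin I and II fold mitotic chromosomes, and 2 genes of condensin II rose. Of all condensin and cohesin genes 20% rose and 10% fell, beside 23.9% and 20.8% of all genes. The subunit gene ncapd3 was at 9.42, 9.50 and 9.60 in control and 10.09, 10.07 and 10.46 in setb MO1 embryos, 1.62-fold higher (0.70 ± 0.12, adjusted p = 0.00262), with setb MO1 replicate 3 highest. A second condensin II gene, ncapg2, was at 9.70, 9.81 and 9.74 against 10.10, 9.97 and 9.94 (0.25 ± 0.07, adjusted p = 0.0224). The third, ncaph2, did not pass (0.14 ± 0.09). Of the condensin I genes, ncapg (0.16 ± 0.07), ncaph and ncapd2 and of the shared core smc4 did not pass. The cohesin gene smc1al fell, from 10.88, 11.03 and 10.92 to 10.72, 10.56 and 10.74 (−0.27 ± 0.08, adjusted p = 0.0251), and a second probe set differed by −0.21 ± 0.08. Its partner smc3 and cdca5, which stabilises cohesin, did not pass. The call on ncapg2 was lost without control replicate 3 (0.0506) or setb MO1 replicate 1 (0.0772) or 2 (0.0509), and that on smc1al without control replicate 2 (0.102) or setb MO1 replicate 2 (0.0858), while ncapd3 stood without any array.

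Of 8 centromere and kinetochore genes, 3 fell, 1 rose and 4 did not pass. These are 37.5% lower and 12.5% higher, beside 20.8% and 23.9% of all genes. The gene cenpi was at 9.74, 9.77 and 9.74 in control and 9.54, 9.49 and 9.52 in setb MO1 embryos (−0.23 ± 0.06, adjusted p = 0.0141). Levels of cenpf, which encodes a large kinetochore protein of G2 and mitosis, were 9.83, 10.14 and 10.18 against 9.76, 9.60 and 9.79 (−0.33 ± 0.11, adjusted p = 0.0414). The dim gene cenpt fell by 0.22 ± 0.08 on the log2 scale (adjusted p = 0.0446). The gene that rose was cenpn, whose product reads the centromeric nucleosome, at 8.74, 8.69 and 8.55 against 8.98, 9.07 and 8.88 (0.31 ± 0.08, adjusted p = 0.0159). Calls on cenpi and cenpn were lost without control replicate 2 (0.0644 and 0.0502) or setb MO1 replicate 2 (0.0537 and 0.0598), and those on cenpf and cenpt without any array but control replicate 1 (0.0622 to 0.138 and 0.0667 to 0.146).

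**Figure D4:**
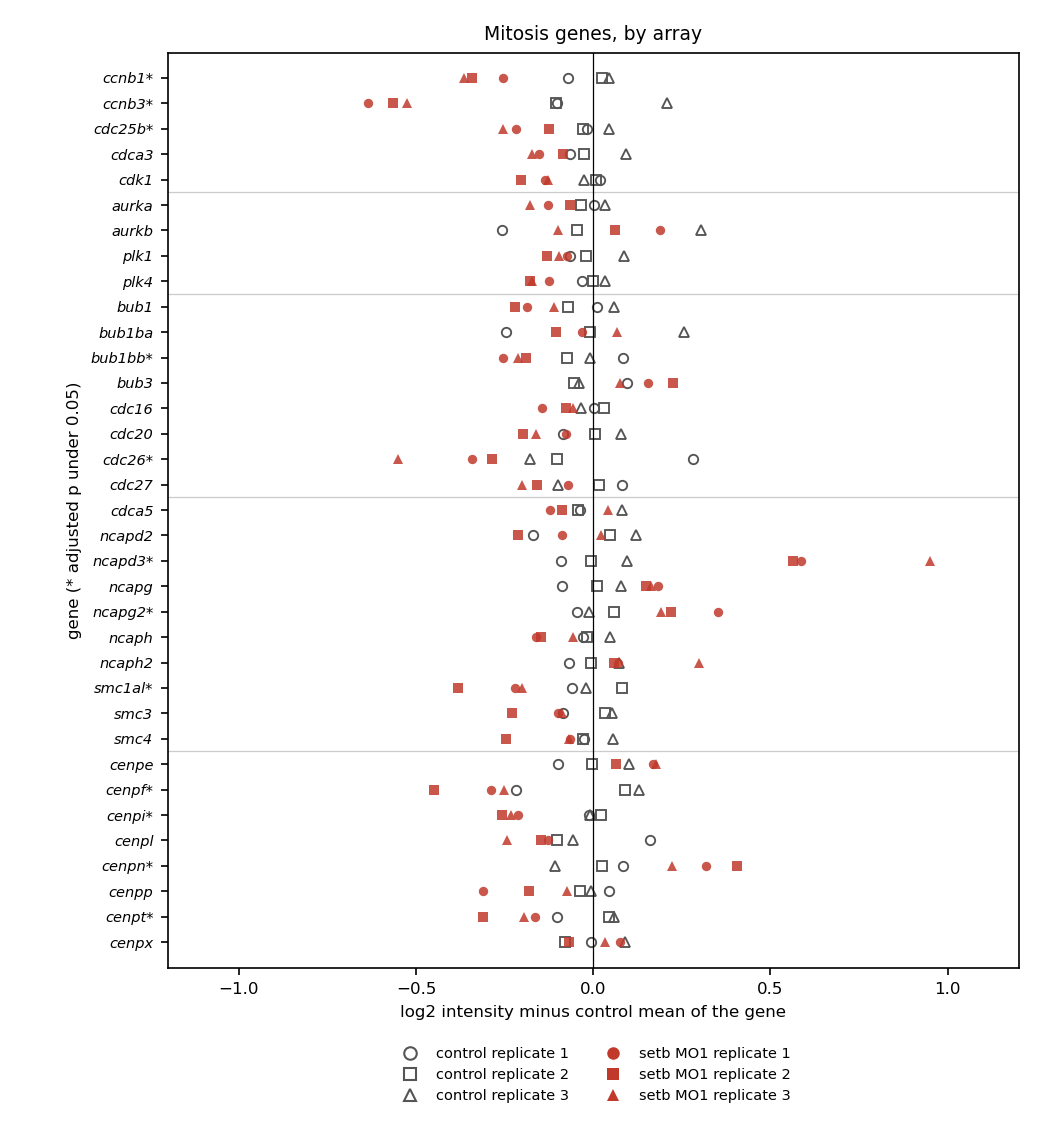
Log2 level in each array minus the control mean of the gene (horizontal axis) for 35 mitosis genes (vertical axis), grouped by role with grey lines between roles; open grey symbols are control and filled red symbols setb MO1 arrays, shapes give the replicate number, and asterisks mark genes that passed the test. In 21 genes all red symbols lie left of all grey ones, with ccnb3 farthest left and ncapd3 farthest right.

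Among the 51 genes that share these symbols but act mainly elsewhere or were not placed, 15 rose, 8 fell and 28 did not pass, with a median log2 difference of 0.09. These are 29.4% higher and 15.7% lower, beside 23.9% and 20.8% of all genes. Of the 8 largest decreases among all 131 members, 6 were found here and the others were those of e2f2 and ccne2. They included genes of the neuronal Cdk5 activators and of kinases named for their likeness to those of the cycle. The gene cdk5r1a, which encodes the neuronal activator p35 of Cdk5, was at 8.78, 8.62 and 8.65 in control and 7.77, 7.73 and 7.56 in setb MO1 embryos (−0.997 ± 0.082, adjusted p = 0.000227). Its paralog cdk5r1b was at 9.91, 9.84 and 9.78 against 8.94, 9.06 and 9.07 (−0.82 ± 0.07, adjusted p = 0.000256). Both fell in all setb MO1 arrays, as did the 8 of 8 measured neuron markers, whose median log2 difference was −0.85, and the part of those markers in these values was not tested. Of these genes, cdk5r1a and the markers syn2a, gad1b and gad2 reached the filter level of 8.45 in control arrays only. The kinase gene cdk5 itself, bound by p35, did not pass, with overlapping groups.

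Of the other kinase genes, cdk18 was at 9.24, 9.16 and 9.07 in control and 8.46, 8.18 and 8.36 in setb MO1 embryos (−0.83 ± 0.09, adjusted p = 0.00052). The Mediator kinase gene cdk19 was at 9.15, 9.15 and 9.31 against 8.41, 8.40 and 8.58 (−0.74 ± 0.08, adjusted p = 0.000527). Its paralog cdk8 and the transcription kinases cdk7, cdk9, cdk12 and cdk13 did not pass. The gene cdca4, known as an E2F-responsive gene in mammals, was at 9.78, 9.63 and 9.59 against 9.06, 9.12 and 8.83 (−0.66 ± 0.10, adjusted p = 0.00154). The gene cdc42se2, whose product binds Cdc42, was at 9.50, 9.40 and 9.15 against 8.95, 8.80 and 8.42 (−0.63 ± 0.15, adjusted p = 0.0125). In all 4 the groups were apart, and the calls stood without any single array.

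The increases in this set included stress-responsive Polo kinases and cell surface and cytoskeletal genes. The 3 genes of the Polo family that are known from stress responses rather than mitosis rose: plk2a by 0.48 ± 0.09, plk2b by 0.31 ± 0.07 and plk3 by 0.30 ± 0.07 (adjusted p = 0.00423, 0.0107 and 0.012). Over all genes 23.9% were called higher. The calls on plk2b and plk3 were lost without control replicate 2 (0.0513 and 0.0568). The membrane protein gene cdcp1b was at 9.69, 9.59 and 9.79 in control and 10.17, 10.34 and 10.27 in setb MO1 embryos (0.57 ± 0.08, adjusted p = 0.00137). Its paralog cdcp1a was dim, at 7.72, 7.72 and 7.80 against 8.06, 8.35 and 8.46 (0.54 ± 0.11, adjusted p = 0.00576), and is listed through its setb MO1 arrays only. The septin-binding Cdc42 effector gene cdc42ep3 was at 9.69, 9.86 and 9.93 against 10.25, 10.36 and 10.46 (0.53 ± 0.09, adjusted p = 0.00283). Besides rrm2b, given above, the rest of those that rose, among them cdc123, cdc42bpb and cdc42ep2, did so by 0.21 to 0.41.

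Of 7 pairs of a and b paralogs among the members, 4 were called in the same direction and 1 in opposite directions. Over all genes 44.7% were called, and paralog pairs outside the members were not counted, so whether 4 is more than usual was not tested. The same direction was found for ccnd2a and ccnd2b, cdcp1a and cdcp1b, and plk2a and plk2b, which rose, and for cdk5r1a and cdk5r1b, which fell. Among these, cdcp1a reached the filter level of 8.45 in setb MO1 arrays only and cdk5r1a in control arrays only, which favoured their directions. The opposite pair encodes a ubiquitin-conjugating enzyme, Cdc34: cdc34a was higher, at 10.11, 10.24 and 10.22 in control and 10.43, 10.44 and 10.37 in setb MO1 embryos (0.22 ± 0.07, adjusted p = 0.0276), and cdc34b lower, at 11.79, 11.54 and 11.58 against 11.25, 11.38 and 11.30 (−0.33 ± 0.08, adjusted p = 0.0165). The call on cdc34b was lost without setb MO1 replicate 1 (0.0582), and that on cdc34a held only without control replicate 3 or setb MO1 replicate 3 (otherwise 0.0585 to 0.0909).

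Other genes of the cycle, from a list of 92 measured genes outside the symbol rule, gave 8 that rose, 18 that fell and 66 that did not pass. These are 8.7% higher and 19.6% lower, beside 23.9% and 20.8% of all genes. Without control replicate 2, 5 rose and 10 fell, and without setb MO1 replicate 2, 11 fell. The retinoblastoma family gene rbl2, whose product p130 is the pocket protein of resting cells, was at 8.64, 8.89 and 9.04 in control and 10.35, 10.40 and 10.65 in setb MO1 embryos. It rose 3.05-fold (1.61 ± 0.12, adjusted p = 0.000197), more than any of the 131 members changed, while rb1 and rbl1 did not pass. The genes myca (0.49 ± 0.06) and mycb (0.55 ± 0.13), of the Myc factors that promote growth, and ccng1 (0.41 ± 0.06), a p53 target, rose, as did chaf1a (0.37 ± 0.06), a subunit gene of the replication-coupled histone chaperone. Levels of myca reached the filter level of 8.45 in setb MO1 arrays only. The inhibitor genes of the p27 and p57 kinds did not move as one. Of the p27 paralogs cdkn1ba rose (0.33 ± 0.08) and cdkn1bb fell (−0.36 ± 0.09, adjusted p = 0.0141), and the p57 gene cdkn1ca fell (−0.75 ± 0.09). The call on the cdkn1ba log2 difference was lost without control replicate 2 (adjusted p = 0.0515).

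Among the list's decreases, tk1, the thymidine kinase of S phase, was at 11.68, 11.51 and 11.55 in control and 10.94, 11.14 and 11.07 in setb MO1 embryos (−0.53 ± 0.08, adjusted p = 0.0019). The cyclin gene ccni (−0.76 ± 0.07), the APC activator gene fzr1b (−0.84 ± 0.12), its inhibitor gene fbxo5 (−0.52 ± 0.11) and the nuclear envelope gene lbr (−0.40 ± 0.07) also fell. Of these, fzr1b and fbxo5 reached the filter level of 8.45 in control arrays only. Of 48 further mitosis genes 12 fell, fzr1b and fbxo5 among them, and none rose, with a median log2 difference of −0.13. Of 25 further replication genes 3 rose and 2 fell, with a median of −0.001. The mitosis share was 25% lower, near the 20.8% of all genes, and 0% higher, beside 23.9%. For replication the shares were 12% higher and 8% lower. The most used proliferation markers did not pass: pcna was at 12.69, 12.58 and 12.61 in control and 12.74, 12.69 and 12.59 in setb MO1 embryos (0.05 ± 0.07), and mki67 was at 12.32, 12.51 and 12.50 against 12.30, 12.24 and 12.38 (−0.13 ± 0.08). Both overlapped between the groups.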

How the data were processed

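The authors deposited log2 intensities of 15726 probe sets on 6 arrays, made with RMA per the submitters' processing notes, with version, software and later filter not given in the sources used here. RMA corrects background, quantile normalises arrays and summarises probes. Probe sets were named by the platform annotation, symbols in lower case; 413 with several symbols were left out and 11738 had 1. Where a gene had several probe sets, that of highest mean level stood for it. The fit was limma 3.58.1 in R 4.3.3 (lmFit, eBayes) over all probe sets, two-sided, with Benjamini-Hochberg adjustment over 11304 genes at 0.05. It was run on simulated data with independent noise and far fewer changed genes than were called here. That setting differs from these arrays, so it does not show how the fit performs on them. Changes are setb MO1 minus control on the log2 scale with standard errors. Roles come from general knowledge, and 5 genes were given another role once the members' symbols were known. The rule gave per-array values to the 8 largest changes in each direction with groups apart, the MCM2-7 subunits and the 3 smallest p of a role. Array values of ccnd1, cdc45, aurkb, cdc34a, cdc34b, pcna and mki67 and the difference of cdkn1bb were added after their values were seen. Those of cdk1 also fall outside the rule. The 92 other genes come from a list of 124 symbols. The members and lists were chosen with earlier results of these data known. Same-numbered samples correlated at 0.069, −0.356 and 0.361 in their deviations from group means, so that the numbers were not taken as pairs. No batch labels were given, and the number of arrays limits precision.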

Additional observations from a re-analysis of the deposited data

How the results depend on the processing

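Of the 53 called members, 28 stood without any single array and 25 lost the call in at least 1 such fit. Counts without single arrays ran from 16 to 31 higher and 15 to 22 lower for all members, 5 to 10 and 2 to 4 for replication, 1 to 3 and 3 to 4 for G1/S control, 1 to 3 and 2 to 6 for mitosis, and 5 to 9 and 10 to 19 for the other cell cycle genes. Over all genes 31.2% to 44.4% were called in those fits. With array weights, 50 members were higher and 43 lower (67.5% of all genes called), with 14 and 7 for replication, 6 higher for G1/S control, 6 and 18 for mitosis, and 24 and 37 for the other genes. In it control replicate 2 weighed 58.9 and the other arrays 0.207 to 0.803. Where only 1 direction of a part is given here or below, its other count stayed within 1.5 times of the main count. At a threshold of 0.01 the counts were 13 and 11, with 5 and 1 for replication and 1 and 2 for mitosis. The other genes gave 4 and 7. For G1/S control 1 was higher, and ccne2, e2f2 and e2f8 were lower. Over all genes 14% were higher and 12.9% lower at that threshold. At 0.1, 5 replication genes were lower, 5 of G1/S control higher and 14 of the other genes higher. The shares of all genes there were 28.7% higher and 25% lower. With a log2 difference of at least 0.5, counts were 7 and 9, with 2 and 0 for replication, 1 and 2 for G1/S control, 1 and 1 for mitosis, and 2 and 6 for the other genes. By that limit 8.95% of all genes were higher and 9.15% lower. With fewer genes tested above the 30th percentile of level 3 replication genes were higher, and above the median level 2, with 19 members in all. Of all genes tested in these 2 settings 24.3% and 24.6% were higher. The replicate block left 5 mitosis genes lower in place of 9 and 23 and 20 members in place of 29 and 24. With the block 22.7% of all genes were higher and 19.6% lower. Repeated quantile normalization, equal array medians, the trended and robust prior, the mean of probe sets and probe sets with several symbols kept each count within 1.5 times. With several symbols kept, orc2 reversed to −0.59, through the probe set it shares with tk1. Without single arrays, 16 of the 78 members that did not pass changed sign, among them, of those given with array values, aurkb (−0.079 to 0.201), mcm3 (−0.207 to 0.0864) and cdk2 (−0.0411 to 0.145). The cause of the other changes was not tested. Dim members near the level of 8.45 are limited by their signal over background, which was not used here.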
